A study of Mus musculus with 2 samples.

Results

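The MS4A genes encode small membrane proteins that cross the membrane several times, and most lie side by side in a single cluster on mouse chromosome 19. The family includes CD20, the B cell antigen encoded by Ms4a1, and its other members mark further blood cell types, among them macrophages, monocytes and T cells. Several act as partners of surface receptors, as the beta chain of the high-affinity IgE receptor does on mast cells. The 10 members described here were taken by gene symbol: Ms4a1, Ms4a4a, Ms4a4b, Ms4a4c, Ms4a4d, Ms4a6b, Ms4a6c, Ms4a6d, Ms4a7 and Ms4a8a. They were chosen by name with the deposited intensities and ratios of these same 2 arrays known, so their values are a description. Of the 10, 7 had a probe, each a single one, out of 19318 named genes on the array. Ms4a4a, Ms4a4c and Ms4a6b had none in the platform annotation and were not analysed here. All 7 gave signal above background on both arrays, as did 14143 genes in all.

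Total RNA of whole liver from 24-week-old mice was measured on 2 single-colour arrays. The control mice carried the Twist2-Cre allele, which drives recombination in mesenchymal lineages. The other genotype, Twist2-Cre/A20fl/fl and called CKO here, carried the same Cre allele with floxed A20, the gene Tnfaip3, whose product restrains NF-kB signalling. The labels do not say how many animals each RNA came from. Each genotype had 1 array, so there was no test, no p-value and no error between animals. Tnfaip3 had deposited intensities of 41 (control) and 38 (CKO). Whole liver holds many cells outside the Cre lineage, and where on the transcript the probe lies is unknown, so this checks nothing about the labels. The hepatocyte gene Alb was at 37445 and 36770, the level of a liver marker far above background.

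The members were read on 3 scales. The deposited intensity is a linear value whose making is not stated; within each array it followed a straight line against the spot intensity, with slopes of 0.859 (control) and 0.825 (CKO), reaching 0 near the mean of the blank spots. The spot intensity is the scanner's own reading, against blank spots that averaged 67.2 (SD 1.17, 384 spots) on the control array and 69.3 (SD 1.45, 384 spots) on the CKO array. The log2 ratio of CKO over control comes from normalized values with an offset of 50, which shrinks the ratios of dim genes. Replicate spots of the 2 positive controls varied by 0.136 to 0.191 (SD of log2 spot intensity) within an array, which measures spot error only. This SD was taken before background correction and offset, unlike the log2 ratios.

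Upstream sequences are shown for the 2 pairs of members that were most alike there, and for Ms4a7 and Ms4a4d, a member that was higher and one that was level between the livers. The RefSeq table (GRCm38.p6) held start sites for 8 of the 10 members, and those of Ms4a1 and Ms4a6d were not used here. Each line holds the 250 bases before the start site, read 5′ to 3′ on the gene's strand, and capitals mark matches to the motifs named after them. Ms4a4b (chr19:11443308-11443557), Ms4a4c (chr19:11407411-11407660), Ms4a6b (chr19:11518309-11518558), Ms4a6c (chr19:11469118-11469367) and Ms4a4d (chr19:11536544-11536793) are on the plus strand. Ms4a7 (chr19:11336147-11336396, the first of 2 start sites) is on the minus strand.
Ms4a4b: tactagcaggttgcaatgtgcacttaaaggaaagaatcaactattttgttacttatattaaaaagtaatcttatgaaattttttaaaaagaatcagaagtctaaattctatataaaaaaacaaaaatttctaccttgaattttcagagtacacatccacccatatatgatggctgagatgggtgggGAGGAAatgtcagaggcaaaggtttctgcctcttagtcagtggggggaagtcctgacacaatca
Ms4a4c: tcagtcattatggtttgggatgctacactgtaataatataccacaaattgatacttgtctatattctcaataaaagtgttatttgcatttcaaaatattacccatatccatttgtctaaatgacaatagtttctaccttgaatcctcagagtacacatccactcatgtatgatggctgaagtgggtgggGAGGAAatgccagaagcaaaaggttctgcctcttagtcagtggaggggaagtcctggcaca
Ms4a6b: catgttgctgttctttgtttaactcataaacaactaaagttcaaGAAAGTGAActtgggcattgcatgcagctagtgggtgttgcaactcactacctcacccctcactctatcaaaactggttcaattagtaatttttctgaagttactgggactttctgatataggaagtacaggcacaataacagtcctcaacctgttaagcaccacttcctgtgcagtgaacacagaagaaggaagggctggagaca
Ms4a6c: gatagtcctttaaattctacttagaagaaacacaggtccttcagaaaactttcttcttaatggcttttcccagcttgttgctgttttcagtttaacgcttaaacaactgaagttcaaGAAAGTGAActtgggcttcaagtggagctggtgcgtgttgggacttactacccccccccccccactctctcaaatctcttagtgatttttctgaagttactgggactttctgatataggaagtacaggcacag
Ms4a7: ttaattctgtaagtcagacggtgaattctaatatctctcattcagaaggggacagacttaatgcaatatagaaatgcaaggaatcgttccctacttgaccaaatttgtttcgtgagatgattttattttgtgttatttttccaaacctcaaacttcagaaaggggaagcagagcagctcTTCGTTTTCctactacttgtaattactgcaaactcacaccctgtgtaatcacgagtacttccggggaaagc
Ms4a4d: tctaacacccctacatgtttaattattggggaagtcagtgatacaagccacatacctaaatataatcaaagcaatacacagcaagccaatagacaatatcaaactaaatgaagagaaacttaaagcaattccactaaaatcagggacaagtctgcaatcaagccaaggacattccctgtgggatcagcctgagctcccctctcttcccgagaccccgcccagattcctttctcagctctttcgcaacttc

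Of the 28 pairs of members with an upstream sequence, Ms4a4b and Ms4a4c had the most identical bases, 80.1% of 231 aligned. Ms4a6b and Ms4a6c came next, with 85.1% of 175 aligned bases. In both pairs 1 gene had a probe and the other had none. Whether a probe also reads another MS4A gene was not tested for any member, and likeness upstream of the start site cannot show it. The values of Ms4a4b, Ms4a6c and the other measured members are therefore uncertain as to the single gene. 4 motifs were searched on both strands of all 9 windows. The interferon-gamma element TTCNNNGAA was in none of the 9 and in 7.02% of all 32851 windows of this length. The core of the interferon-stimulated element, GAAANNGAA, was in 7.13% of all windows and in Ms4a6b, Ms4a6c and both start sites of Ms4a7, and in none of the other members searched. Its matches began 206 bases before the start site in Ms4a6b, 133 in Ms4a6c, and 71 and 148 in Ms4a7. The PU.1 core GAGGAA, in 23.3% of all windows, occurred once each in Ms4a4b and Ms4a4c, starting 64 and 61 bases before the start site. The kB form GGANTTTCC, in 1.07% of all windows, was in Ms4a4a alone. These letters were settled after a first search: with a further A the interferon core was in none of the members (2.98% of all windows), and a looser kB form, GGG and CC around any 5 bases, was in 6 of them (45.8%). None of the 4 motifs was found in Ms4a4d, which was level between the livers, or in Ms4a8a, which was higher in the CKO liver. The matches describe letters in these windows and no more.

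The macrophage members were higher in the CKO liver. Ms4a7, a marker of tissue macrophages, had deposited intensities of 12 in the control liver and 68 in the CKO liver. Its spot read 81.6 and 151, which stood 12.4 and 56.5 blank SDs above the blank mean. The CKO value was thus 5.67-fold the control value on the deposited scale, with a log2 ratio of 0.97 on the offset scale. In whole liver, more cells of a type and more RNA per cell cannot be told apart, here or for any member.

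Ms4a6d, a macrophage protein described as a partner of the receptor Vsig4, was at 32 in the control liver and 165 in the CKO liver. Its spot read 104 and 269, and its log2 ratio was 1.46, corresponding to 5.16-fold in the deposited values. Vsig4 itself, a marker of Kupffer cells, was at 123 and 291 with a log2 ratio of 1.02. Both were past 2-fold on the offset scale, beside 0.636% of all genes. Vsig4 was named here after its value was seen.

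Ms4a6c, found on monocytes and macrophages, was at 19 and 77, with spots of 89.8 and 163. The deposited values gave 4.05-fold and the offset scale a log2 ratio of 0.92. Ms4a8a, described in alternatively activated macrophages, was at 7 and 15. Its spots of 75.8 and 87.7 stood 7.40 and 12.8 blank SDs above the blank mean. This member lay close to background on both arrays, and its 2.14-fold deposited difference became a log2 ratio of 0.20 on the offset scale. The SD of replicate control spots, up to 0.191, was taken without the offset and is no direct measure for that ratio. Over the blank mean the signal of Ms4a8a was 8.65 (control) and 18.5 (CKO), beside blank SDs of 1.17 and 1.45.

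The T cell member was higher as well, and the B cell member was not. Ms4a4b, also known as Chandra, is found on T cells, where it has been described as a partner of the receptor GITR and a modulator of proliferation. It was at 21 in the control liver and 84 in the CKO liver, with spots of 91.2 and 171. The deposited values differed 4-fold and the log2 ratio was 0.97. Ms4a1 was at 10 and 9, with spots of 78.6 and 80.0. Its signal over the blank mean was 11.4 (control) and 10.7 (CKO), a difference smaller than 1 SD of the blank spots. Its log2 ratio was -0.03. Ms4a1 stood 9.77 and 7.41 blank SDs above the blank mean, so it was detected but near the floor.

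Ms4a4d was at the same level in both livers. Its deposited intensities were 190 and 188 and its spots read 288 and 298. The log2 ratio of 0.01 was smaller than the spread of replicate control spots. No role is given here for this gene. Its signal stood 189 and 158 blank SDs above the blank mean.

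**Figure D1:**
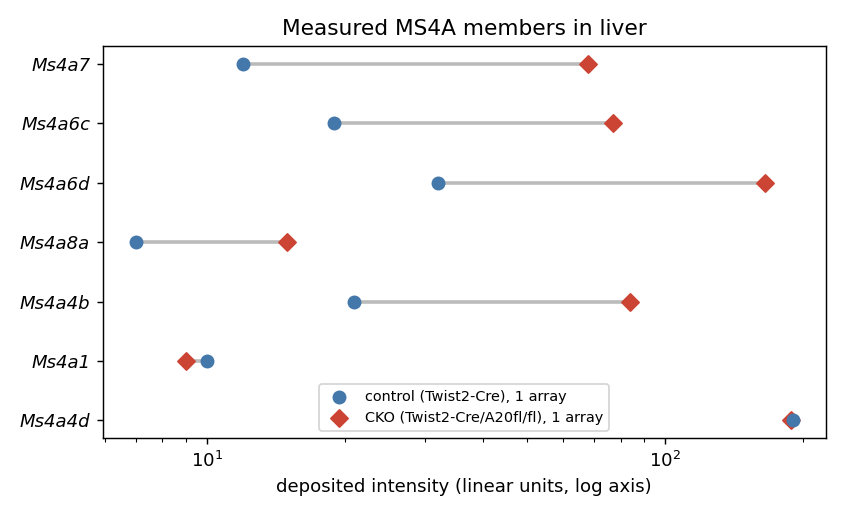
Deposited intensity (linear units, log axis) of the 7 measured MS4A members in the control (blue circles) and CKO (red diamonds) liver, 1 array each, with no error bars because there are no replicates. Ms4a7, Ms4a6c, Ms4a6d, Ms4a8a and Ms4a4b lie to the right in the CKO liver, while Ms4a1 (10 and 9) and Ms4a4d (190 and 188) hardly move.

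On the offset scale 1 of the 7 members, Ms4a6d, was at least 2-fold higher, beside 90 of 14143 genes (0.636%), and 0 were at least 2-fold lower, beside 11 genes (0.0778%). Ms4a7, Ms4a4b and Ms4a6c fell just short of the 2-fold line, at 0.97, 0.97 and 0.92. In the deposited values 5 of the 7 were at least 2-fold higher, beside 559 of 14638 genes (3.82%), and none lower, beside 158 genes (1.08%). The median log2 ratio of the 7 members was 0.92 on the offset scale and 2 in the deposited values, against -0.02 and -0.04 over all genes. Since the members were chosen with this contrast known, nothing is read from these counts. The deposited values rank Ms4a7 first of the members and the offset scale Ms4a6d.

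**Figure D2:**
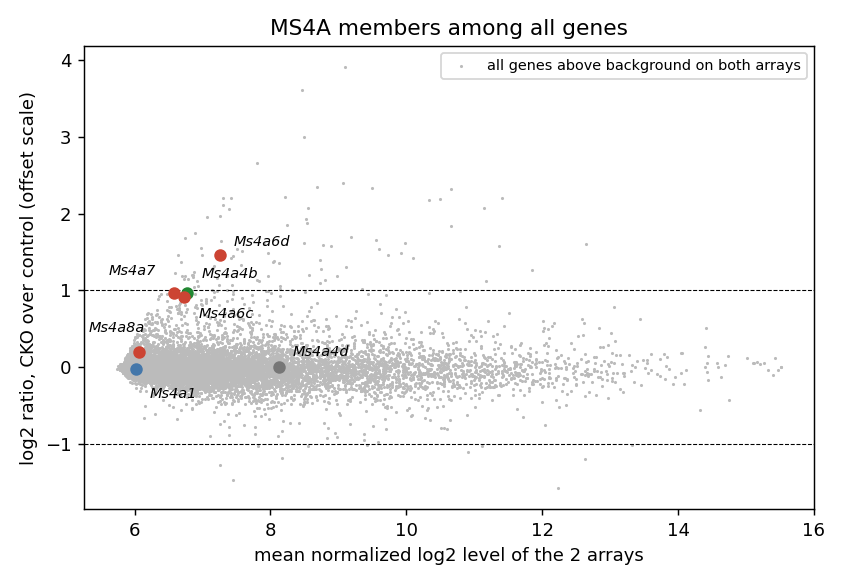
Log2 ratio of CKO over control (offset scale) against the mean normalized log2 level for the 14143 genes above background on both arrays (grey), with the macrophage members in red, Ms4a4b in green, Ms4a1 in blue and Ms4a4d in dark grey. Dashed lines mark 2-fold. Ms4a6d (1.46) lies above the upper line and Ms4a7, Ms4a4b and Ms4a6c (0.92 to 0.97) just under it.

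The marker genes of the matching cell types were set beside the members, list by list. Of 14 Kupffer cell and macrophage markers, 13 were above background on both arrays and all 13 were higher in the CKO liver. On the offset scale 6 were at least 2-fold higher, beside 0.636% of all genes. The median log2 ratio of the 13 was 0.82, against -0.02 over all genes. Their deposited intensities summed to 2362 (control) and 7195 (CKO). The scavenger receptor Marco (74 and 1707), the complement subunit C1qa (169 and 578) and the apoptosis inhibitor Cd5l (344 and 1051) had the largest log2 ratios on the offset scale. Adgre1, the gene of the F4/80 antigen, was above background in the CKO liver only. The macrophage members and this marker list were thus higher in the same liver, and the part of the cell number in the members' values was not tested.

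Monocyte and recruited macrophage markers were also higher. 10 of 13 with a probe were above background on both arrays, and all 10 were higher. On the offset scale 3 were at least 2-fold higher, beside 0.636% of all genes. The median log2 ratio of the 10 was 0.52 and their deposited intensities summed to 1089 and 3478. Lysozyme Lyz2 (695 and 2437), the galectin Lgals3 (43 and 190) and Plac8 (95 and 270) had the largest log2 ratios on the offset scale, while in the deposited values the dim Itgax (4 and 28), Ccr2 (5 and 24) and Fcgr1 (13 and 52) were further apart than Lyz2 and Plac8. The defining markers Itgam and F13a1 were not above background on either array. Of 6 markers of alternatively activated macrophages, the setting in which Ms4a8a is known, 4 were above background on both arrays and all 4 were higher. On the offset scale their median log2 ratio was 0.18 and none was past 2-fold. Their summed intensities were 205 and 256. Clec7a (6 and 18) and Il4ra (121 and 148) had the largest log2 ratios on the offset scale among these 4. In the deposited values Clec7a (3-fold) and the dim Clec10a (3 and 7, 2.33-fold) were past 2-fold, beside 3.82% of all genes. Retnla was not above background on either array. Chil3, above background in the CKO liver only, was at 26 there and at least 1.51-fold higher on the offset scale.

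T cell markers were dim. Of 11 with a probe, 9 were above background on both arrays, 7 higher and 2 lower. On the offset scale their median log2 ratio was 0.15 and none was past 2-fold. With plain subtraction of the blank mean their median was 0.80. Their deposited intensities summed to 69 and 189. The CD8 chains Cd8b1 (3 and 34) and Cd8a (9 and 56) and the CD3 chain Cd3d (19 and 39) had the largest log2 ratios (0.71, 0.49 and 0.38). In the deposited values these genes were past 2-fold, as was Cd2 (4 and 17), and Bcl11b (3 and 6) was at 2-fold. Of all genes, 3.82% were at least 2-fold higher on that scale. Of 2 Cd8a probes only 1 was above background, and the gene's log2 ratio averages both. Cd3e was not above background on either array, and Cd4 was at 6 and 8. The 2 lower markers were Cd5 (5 and 4, log2 ratio -0.03) and Cd6 (12 and 11, -0.02). Ms4a4b and 7 of these 9 T cell markers were thus higher in the same liver. The part of T cell number in the Ms4a4b value was not tested. The 5 NK and cytotoxic markers above background on both arrays summed to 52 and 133, with 4 of 5 higher (median 0.28). Gzma was at 5 and 36 and Gzmb at 24 and 62. Nkg7, above background in the CKO liver only, was at 26 there and at least 1.49-fold higher on the offset scale. The 3 regulatory T cell markers above background on both arrays summed to 79 and 78, with 1 of 3 higher. Il2ra was at 16 and 20, Ikzf2 at 9 and 6 and Foxp3 at 54 and 52. Ctla4, above background in the CKO liver only, was at 4 there and at least 1.03-fold higher on the offset scale.

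As a list, B cell markers above background on both arrays were level between the livers, as Ms4a1 was. Of 12 with a probe, 8 were above background on both arrays, 4 higher and 4 lower. On the offset scale their median log2 ratio was -0.005 and none was past 2-fold. Their deposited intensities summed to 188 and 186. The B cell receptor chains Cd79a (8 and 8) and Cd79b (39 and 51) were detected, and Cd22 was at 36 and 30. In the deposited values the dim Fcrla (2 and 4) was at 2-fold, beside 3.82% of all genes at least 2-fold higher. Bank1, above background in the CKO liver only, was at 2 and 7 and at least 1.09-fold higher on the offset scale. Pax5, Blk and Cr2, which define B cells, were not above background on either array. At this signal over background a small difference in Ms4a1 could be missed. Its signal in both livers lay within about 11 units of the blank mean, where the blank spots had SDs of 1.17 (control) and 1.45 (CKO).

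**Figure D3:**
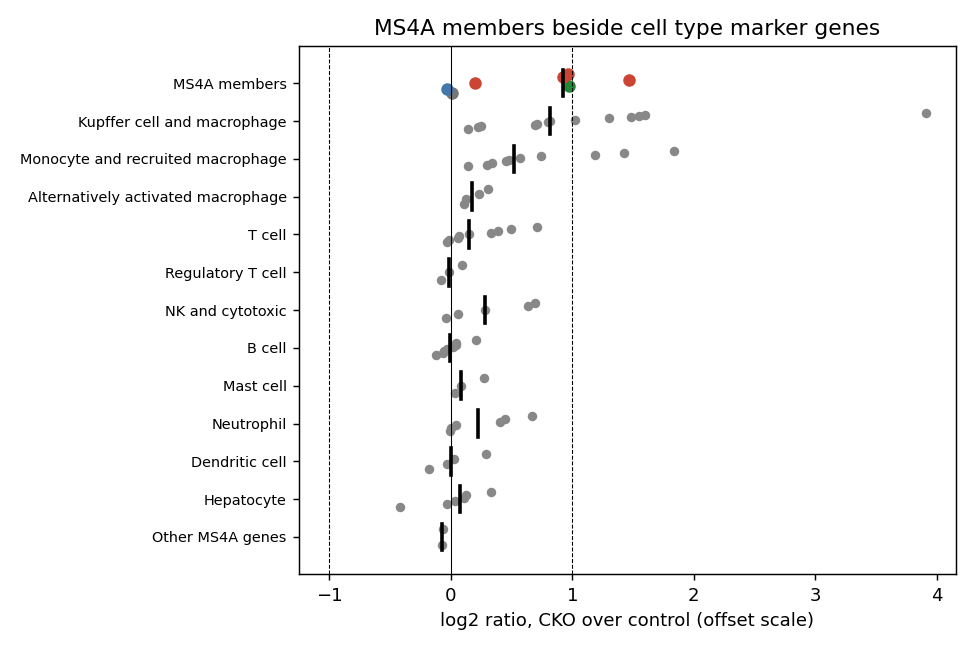
Log2 ratio of CKO over control (offset scale) for the 7 measured MS4A members (macrophage members red, Ms4a4b green, Ms4a1 blue, Ms4a4d grey) and for the marker genes above background on both arrays, 1 point per gene. Vertical bars are medians over genes and dashed lines mark 2-fold. The Kupffer cell list (median 0.82) and the monocyte list (0.52) lie to the right and the B cell list (-0.005) at 0.

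Receptors that have been described as partners of MS4A proteins were read from a list of 5. Tnfrsf18, the gene of GITR, was at 8 and 18 with a log2 ratio of 0.25. Clec7a, the receptor dectin-1 and a described partner of the MS4A4A protein, had a ratio of 0.30. Trem2, a receptor of lipid-handling macrophages whose soluble form is linked to MS4A4A, was at 13 and 26 (0.29). Fcer1g, the signalling chain shared by Fc receptors, was at 189 and 512 and past 2-fold on the offset scale (1.27). Fcer1a, the alpha chain of the IgE receptor, was not above background on either array. All 4 partners that were above background were thus higher in the CKO liver. On the offset scale 1 of them was past 2-fold, beside 0.636% of all genes. In the deposited values all 4 were at least 2-fold higher, beside 3.82% of all genes. The folds were 2 for Trem2, 2.25 for Tnfrsf18, 2.71 for Fcer1g and 3 for Clec7a.

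The rest of the family was at background or nearly level between the livers. RefSeq lists 21 MS4A genes, all on chromosome 19, and 17 had a probe. Of the 10 that are not members, 7 were not above background on either array. These were Ms4a2, the beta chain of the IgE receptor, and Ms4a10, Ms4a12, Ms4a13, Ms4a14, Ms4a19 and Ms4a20. Ms4a3, a gene of myeloid progenitors, was at 3 in the control liver and not above background in the CKO liver. Ms4a5 was at 21 and 18, and Ms4a18 at 15 and 13, each with a log2 ratio of -0.07. Of 6 mast cell markers 3 were above background on both arrays, all 3 higher with a median log2 ratio of 0.08: Mcpt4 was at 55 and 76, Hdc at 24 and 29 and Kit at 7 and 8. Cpa3, Fcer1a and Tpsb2, which define mast cells, were not above background on either array.

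Along the chromosome, the 4 members with log2 ratios of 0.92 to 1.46 lay in a single stretch of the cluster, which also held Ms4a4d. In RefSeq order Ms4a7, Ms4a4a, Ms4a4c, Ms4a4b, Ms4a6c, Ms4a6b, Ms4a4d and Ms4a6d follow each other among the MS4A genes. This stretch held 5 measured genes, with log2 ratios of 0.97 for Ms4a7, 0.97 for Ms4a4b, 0.92 for Ms4a6c, 0.01 for Ms4a4d and 1.46 for Ms4a6d. Ms4a4d lay inside it and differed from the next MS4A gene, Ms4a6d. The MS4A gene before it, Ms4a6b, had no probe. Ms4a8a (0.20) and Ms4a1 (-0.03) lay outside this stretch, among MS4A genes that were mostly at background.

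**Figure D4:**
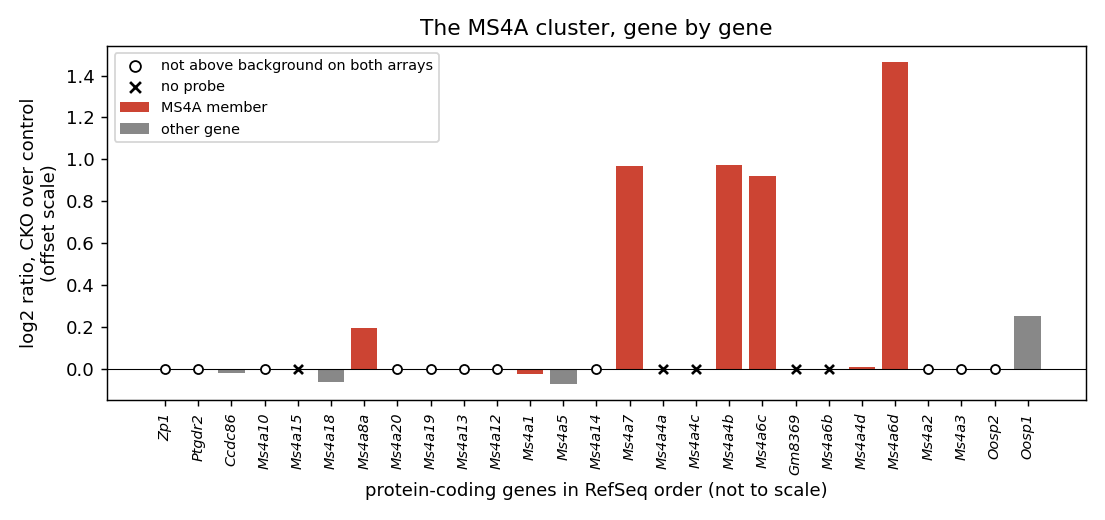
Log2 ratio of CKO over control (offset scale) for the protein-coding genes of the MS4A cluster on chromosome 19 and the nearest genes on each side, in RefSeq order and not to scale. Red bars are members, grey bars other genes, open circles genes not above background on both arrays and crosses genes without a probe. The bars of 0.92 to 1.46 stand between Ms4a7 and Ms4a6d, with Ms4a4d (0.01) among them.

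The size of every difference depended on how background was handled. With an offset of 16, which put 1.28% of all genes at least 2-fold higher, the log2 ratios were 1.53 for Ms4a7, 1.92 for Ms4a6d, 1.38 for Ms4a6c, 1.43 for Ms4a4b and 0.40 for Ms4a8a. With plain subtraction of the blank mean (3.05% of all genes) they were 2.43, 2.39, 1.98, 2.02 and 1.02 in the same order. Cyclic loess (0.714%) brought Ms4a4b to 2-fold beside Ms4a6d. Ms4a1 stayed between -0.16 and -0.01 over the 9 alternatives tried. With the scanner's local background column in place of the blank spots, no member reached 2-fold in either direction, beside 2.98% of all genes higher and 1.39% lower. There the ratios were 0.25 for Ms4a7, 0.22 for Ms4a6d, 0.28 for Ms4a6c, 0.03 for Ms4a4b, 0.02 for Ms4a8a and -0.76 for Ms4a4d. That column moved with the spot itself, with r of 0.988 (control) and 0.972 (CKO) across gene spots on the log2 scale. Around the Ms4a4b spot it read 80.9 on the control and 157 on the CKO array, and around the Ms4a6d spot 82.1 and 215.

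**Figure D5:**
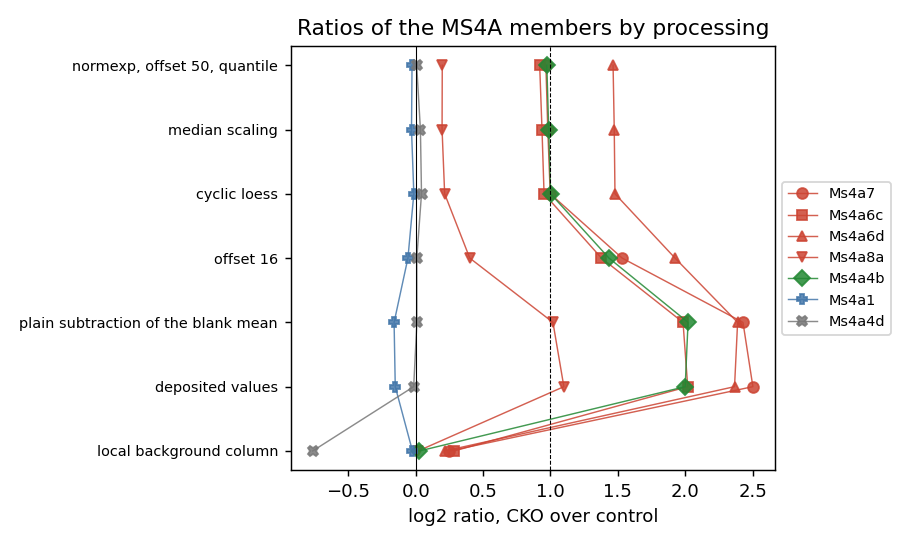
Log2 ratio of CKO over control for each measured MS4A member under 7 ways of processing the same 2 arrays (lines join 1 member). The 4 members near or above 1 at the top reach 1.98 to 2.50 with plain subtraction or in the deposited values and 0.03 to 0.28 against the local background column, while Ms4a1 stays near 0.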

How the data were processed

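The 2 samples were single-colour arrays, 1 for each genotype named by the submitters. RNA was amplified, per the labels' protocols, coupled to Cy5 and hybridised after TORAY's protocol. Per the file headers, each spot has a median intensity and a median local background intensity, from scans at 3 gains joined by least-squares lines. The deposited value table holds intensity on a linear scale. How it was made is not stated; against the scanner values each array followed a straight line that reached 0 at 67.1 (control) and 69.2 (CKO), close to the blank means. Both columns have a median of 25.

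Spot intensities were background-corrected against the mean of the 384 blank spots with normexp (limma 3.58.1, R 4.3.3, offset 50), control spots were left out, and log2 values of gene spots were used after quantile normalization. Flagged spots (4 control, 0 CKO) were left out. A probe was above background when it exceeded the blank mean plus 2 SD (69.5 and 72.2). Probes were named from the platform annotation, and a gene's value is the mean of its probes. A gene above background on 1 array only is given as "at least" a fold on the offset scale. It is set against the lowest signal above background or its own value on the dim array, whichever was higher. The offset makes this fold small for dim genes. The number of arrays limits the precision. The procedure was run on simulated arrays with known folds. These held spot noise only, so they say nothing about differences between animals.

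The members and lists were chosen with earlier results of these data known. Named genes were all 10 members, the other MS4A genes (Ms4a12 and Ms4a19 were added from the annotation), the cluster's neighbours, 5 reported partners, Tnfaip3, up to 3 genes of each marker list with the largest ratios, and the 3 nearest genes by level of the 3 members with the highest mean level. Other marker genes (Vsig4, Adgre1, Itgax, Ccr2, Fcgr1, Itgam, F13a1, Retnla, Chil3, Clec10a, Cd2, Cd3e, Cd4, Cd5, Cd6, Bcl11b, Foxp3, Cd79a, Fcrla, Pax5, Blk, Cr2, Cpa3, Tpsb2, Ly6g and Alb) were named after their values were seen. Alternatives were the offset, plain subtraction, the local background column, the deposited values, median scaling, cyclic loess, 2 other filters on dim probes and the brightest probe.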

Additional observations from a re-analysis of the deposited data

How the results depend on the processing

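The number of MS4A members at least 2-fold higher was 1 with median scaling, with no filter on dim probes, with a filter at 3 SD and with the brightest probe. It was 2 with cyclic loess, 4 at offset 16, 0 when the local background column was used, and 5 both with plain subtraction and in the deposited values. No member was 2-fold lower under any of the 9 alternatives. Over all genes, 181 were higher and 19 lower with an offset of 16, 431 and 83 with plain subtraction, 421 and 196 with the local background column and 559 and 158 in the deposited values. Ms4a4d changed sign with the local background column (-0.76) and in the deposited values (-0.02), and Ms4a7, Ms4a6c, Ms4a6d, Ms4a4b and Ms4a8a stayed positive and Ms4a1 negative under all 9. The medians of the Kupffer cell (0.28 to 1.27), monocyte (0.21 to 1.72) and T cell lists (0.02 to 1) stayed positive under all 9, and that of the B cell list ran from -0.08 to 0.005. The readings at single gains were not run, since the files give only flags for each gain. No paired analysis was possible because each genotype had 1 array, and no replicate could be left out. Signal close to the blank spots limits Ms4a1 and Ms4a8a most.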

Other observations

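The distant relatives Tmem176a and Tmem176b, which lie together on another chromosome and encode membrane proteins of myeloid and other cells, were higher in the CKO liver without reaching 2-fold. Tmem176a was at deposited intensities of 910 (control) and 1358 (CKO) (log2 ratio 0.60), and Tmem176b at 1629 and 2189 (0.46). Beside the cluster, Oosp1, an oocyte-secreted protein gene 2 places beyond Ms4a3, was at 127 and 157 (0.25), and Ccdc86, next to Ms4a10, at 48 and 46 (-0.02). The neighbours Zp1, Ptgdr2 and Oosp2 were not above background on either array.

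The genes with the most similar pair of normalized log2 levels, by distance over the 2 arrays among 14142 genes, were listed for 3 members. With only 2 arrays this measures likeness of level and ratio in these livers alone. Nearest to Ms4a6d was H2-DMa, a chaperone of MHC class II loading, at deposited intensities of 28 and 184, then Bcl2a1c (32 and 145) and Eif4e3 (32 and 141). Nearest to Ms4a4b was another member, Ms4a6c, followed by the cytochrome Cyp2c55 (23 and 75) and the mitotic kinase Cdk1 (17 and 93). Nearest to Ms4a4d were Ciao2a (189 and 190), Rsl1d1 (188 and 188) and the chaperonin subunit Cct7 (191 and 186), all level between the livers.

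Lists of other cell types were read alongside. Of 7 neutrophil markers 6 were above background on both arrays, 5 higher and 1 lower, with a median log2 ratio of 0.22. S100a9 was at 15 and 50, S100a8 at 36 and 66 and Csf3r at 5 and 22, while Ly6g was level (356 and 345). Of 7 dendritic cell markers 4 were above background on both arrays, 2 higher and 2 lower. Their median was -0.0004, of changing sign between settings. Batf3 was at 27 and 43 and Itgae at 174 and 124.5. Clec9a, above background in the CKO liver only, was at 6 there and at least 1.08-fold higher on the offset scale. Of 6 hepatocyte markers 4 were higher and 2 lower, with a median of 0.07, which became -0.18 against the local background column; Tat was at 4834 and 3280 and Hnf4a at 863 and 1051.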
